A study of Mus musculus with 4 samples.

Results

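Rny1 and Rny3 are the genes of the mouse Y RNAs Y1 and Y3. They were taken by name from a table of RNA-RNA contacts, as every row with Rny1 or Rny3 on either side, which gave 2 of the 13318 RNAs and 33 of the 56636 pairs in the table. The contacts were measured by RIC-seq in spermatogonial stem cells of the mouse, which maintain themselves in the testis and feed spermatogenesis. In RIC-seq, RNA and protein are fixed in the cell with formaldehyde, RNA is cut, neighbouring ends are joined in place, and the joined (chimeric) fragments are sequenced. The control group was 2 libraries of cells with the genotype entry WT, and the other group was 2 libraries with the entry Differentiation. No strain, age, inducer, duration or other allele was given in the labels, nor whether the libraries came from separate cultures. The p-values below therefore reflect only how far these 4 libraries spread, and that spread may be technical.

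Y RNAs are short noncoding RNAs made by RNA polymerase III and folded into a stem with a loop. They are bound by the ring-shaped protein Ro60 and, at their 3' end, by the La protein (gene Ssb), and are known for roles in the quality control of other small RNAs, in the stability and location of Ro60, and in the start of DNA replication. Vertebrate genomes also hold many Y RNA pseudogenes, so reads of near-identical copies can be shared. How such reads were assigned was not given in the sources used here.

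Both genes lie on chromosome 6 of GRCm38.p6, Rny3 at 47781624 to 47781724 (101 bases) and Rny1 at 47788070 to 47788180 (111 bases), with 6345 bases between them. RefSeq classes both as Y RNA, and the protein-coding gene Pdia4 lies 7960 bases beyond Rny1. No listed pair joined a Y RNA to Pdia4, to the other Y RNA, to itself, or to any partner placed on chromosome 6. Every pair in the table had at least 1 count in all 4 libraries, so a pair that is not listed may have been seen in some of them. RNAs without a listed pair with themselves made up 63.7% of all RNAs. The order of names within a pair followed the chromosome names in 99.997% of 33521 pairs placed on different chromosomes, so the side on which a Y RNA stands carries no information on the joined end.

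The total count over all pairs ranged from 793129 to 1400011 per library. The undifferentiated spermatogonial markers checked gave listed contacts for 8 of 14 RNAs, with a summed level of 992 and 1141 CPM (counts scaled by library size) in the controls against 411 and 412 CPM in the differentiation libraries. Shisa6 alone held 544 and 638 CPM of this sum in the controls against 141 and 105 CPM in the differentiation libraries. Nanos2, Id4, Lhx1, Eomes, Lin28a and Bcl6b were not listed, and 3 of the 7 tested fell (median log2 change −1.14). Taf4b, also tested, had a positive change (0.74) that did not pass. Among all 10993 RNAs tested, 6.75% passed the test as lower and 5.44% as higher, which is the background for each marker list here. Of the germ cell markers, 8 of 8 were listed, at 3837 and 4166 CPM against 4267 and 3886 CPM. Most of this sum was Tex14 (3716 and 4064 against 3971 and 3511 CPM), while 3 of the 8 rose, Tdrd9 (2.17), Tdrd5 (1.61) and Mov10l1 (1.39), and none fell (median 1.00). Differentiating spermatogonial markers were listed for 5 of 6 RNAs, at 48.6 and 51.9 against 78.3 and 64.2 CPM, and 0 of 3 tested passed (median 0.40). Sertoli cell markers were listed for 8 of 9 RNAs, at 990.0 and 1122 against 612 and 567 CPM, and 5 of 7 tested fell (median −1.26). Fibroblast or feeder markers were listed for 8 of 8, at 1617 to 1775 against 1556 to 1699 CPM. In this list 4 fell, Col1a1 (−0.67), Col3a1 (−1.20), Fbn1 (−1.39) and Pdgfrb (−1.34), and Tnc rose (1.21, from 296 to 682 CPM on average), with a median of −0.74. Of the 8 called germ cell and fibroblast markers named here, only Tdrd9 kept its call with either control left out (adjusted p = 0.0172 and 0.0314), and Col1a1 did not pass under column totals (0.0782). For the called undifferentiated spermatogonial and Sertoli cell markers this check is not given here. The part of all these markers in the Y RNA results was not tested. In such bulk libraries fewer cells of a type and less RNA per cell cannot be told apart, and a contact total can move with the level of the RNA as well as with its contacts.

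Both Y RNAs had lower contact totals in the differentiation libraries, while 4 of the 5 other small RNAs compared with them did not pass the test and RNase P RNA rose. The contact total of an RNA is the sum of the counts of all its listed pairs. Rny3 had 224 and 321 counts in the controls against 60 and 90 in the differentiation libraries, which is 130 and 162 CPM against 48.9 and 48.6 CPM after scaling for library size. Both differentiation libraries lay below both controls, and the controls differed from each other more than the differentiation libraries did. Rny3 fell 2.99-fold in the fit, with group means of 146 ± 22.7 and 48.8 ± 0.238 CPM (SD, n = 2; log2 change −1.58, SE 0.20, adjusted p = 6.19e-04 by edgeR's quasi-likelihood test, used for every adjusted p below unless another is named). Rny1 had 132 and 152 counts in the controls against 38 and 72 in the differentiation libraries, or 76.4 and 76.6 against 31.0 and 38.9 CPM. Its groups did not overlap either. Rny1 fell 2.17-fold in the fit, with group means of 76.5 ± 0.134 and 34.9 ± 5.57 CPM (log2 change −1.11, SE 0.22, adjusted p = 0.00813). The share of all RNA totals without overlap was not counted, so the lack of overlap is not evidence by itself.

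Of all 10993 RNAs tested, 6.75% fell and 5.44% rose at an adjusted p under 0.05, or 12.2% in either direction, and their median log2 change was −7.07e-04. The Rny1 call was lost without control 1 (adjusted p = 0.106) and without control 2 (0.154), and the Rny3 call without control 2 (0.0522), with log2 changes of −1.12, −1.12 and −1.41. The number of all RNAs called was 1340, and it was 294 without control 1, 129 without control 2 and 2103 without differentiation 1.

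The Y RNAs had lower levels per length than the other 5 small RNAs. By summed count Rny3 ranked 1600 and Rny1 2610 of 13318 RNAs. Per 100 bases of RNA, Rny3 stood at 144 CPM and Rny1 at 68.9 CPM in the controls, and at 48.3 and 31.5 CPM in the differentiation libraries. On the same scale the other small RNAs ranged from 444.5 CPM (Rn7s1) to 1863 CPM (Rmrp) in the controls. The ratio of Rny3 to Rny1 counts was 1.70 and 2.11 in the controls against 1.58 and 1.25 in the differentiation libraries. These ratios did not overlap between groups, with a change of −0.43 on the log2 scale, but with 2 libraries per group no two-sided exact permutation test can give less than p = 0.333, which was the value obtained. A steeper fall of Rny3 than of Rny1 was therefore not shown.

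**Figure D1:**
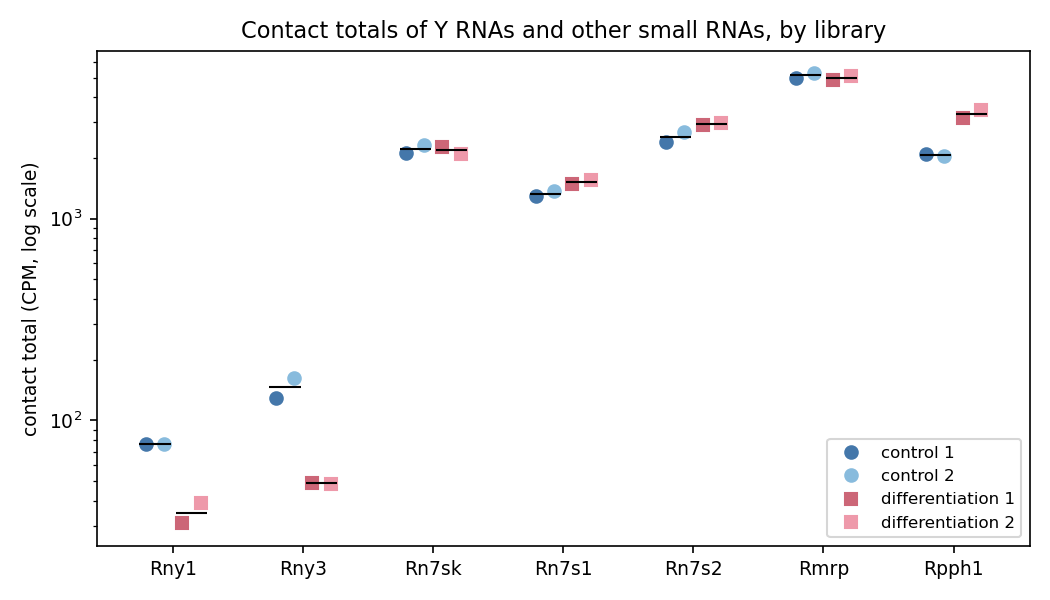
Contact totals in CPM (log scale) of the Y RNAs and of 5 other small noncoding RNAs, 1 point per library, with the mean of each group as a black line. Rny1 and Rny3 sit lower in both differentiation libraries (31.0 to 48.9 CPM) than in both controls (76.4 to 162 CPM). Rpph1, Rn7s1 and Rn7s2 sit higher in both, of which only Rpph1 passed the test, and Rn7sk and Rmrp overlap.

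The 5 small RNAs set beside them are, like the Y RNAs, made by RNA polymerase III. Rn7sk encodes 7SK RNA, which holds back the elongation factor P-TEFb, and stood at 2111 and 2318 CPM in the controls against 2274 and 2090 CPM in the differentiation libraries (log2 change −0.02, adjusted p = 0.951). This sign turned positive (0.01) under RLE scaling, and was 0.13 under column totals. Rmrp, the RNA of RNase MRP, which cuts ribosomal RNA precursors, stood at 4999 and 5250 against 4846 and 5089 CPM (−0.04, adjusted p = 0.884), and its change was 0.11 under column totals. Rn7s1 and Rn7s2 are copies of 7SL RNA, the RNA of the signal recognition particle, and changed by 0.19 (adjusted p = 0.432) and 0.21 (adjusted p = 0.387). Rpph1, the RNA of RNase P, which trims tRNA precursors, rose from 2067 ± 22.1 to 3303 ± 238 CPM (0.68, SE 0.14, adjusted p = 0.0110). With control 1 left out the adjusted p was 0.165, and with control 2 left out 0.248.

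Within each library, both Y RNAs were also lower relative to these RNAs. Rny3 counts were 6.14% and 6.98% of Rn7sk counts in the controls against 2.15% and 2.32% in the differentiation libraries. For Rny1 these values were 3.62% and 3.30% against 1.36% and 1.86%. Over the 5 RNAs the change of the log2 ratio ran from −1.53 (to Rmrp) to −2.24 (to Rpph1) for Rny3 and from −1.09 to −1.81 for Rny1. In each of these 10 ratios the groups did not overlap, and each exact permutation test gave p = 0.333 (0.333 adjusted over 11 ratios), the smallest p possible here. A ratio of counts within a library needs no scaling between libraries. The 10 ratios rest on the same Y RNA totals, whose groups did not overlap, so they are not separate results. How many of all RNAs would show such ratios was not counted.

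Rny3 had 16 listed partners and Rny1 had 17, against a median of 3 over all RNAs. They shared 8 partners, which is 47.1% of the partners of Rny1 and 50.0% of those of Rny3, and these 8 held 69.3% of Rny1 counts and 72.4% of Rny3 counts. In order of count they were the nuclear-speckle RNA Malat1, Gm26917, Gm23935, Gm42418, the 7SL copy Rn7s2, AC157822.2, Erdr1 and Cmss1. RefSeq gives Gm42418 as a synonym of Rn18s-rs5, a pseudogene related to 18S ribosomal RNA, and does not list Gm26917, Gm23935, AC157822.2 or Gm24447 under these names. Of the 25 partners 21 were matched. Neat1, the architectural RNA of paraspeckles, was a listed partner of Rny3 and not of Rny1. Rmrp was likewise listed with Rny3 only, and Gm26316 and Gm24950, which RefSeq classes as small nuclear RNA genes, with Rny1 only. Since a pair needs a count in every library to be listed, these differences in partners were not tested.

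Contacts of Rny3 were concentrated on Malat1 and Neat1 in the controls. Together they held 51.8% of Rny3 counts in control 1 (95% Wilson interval 45.3 to 58.2%) and 54.5% in control 2 (49.0 to 59.9%), and 20.0% (11.8 to 31.8%) and 18.9% (12.1 to 28.2%) in the differentiation libraries. The control intervals lie above those of the differentiation libraries, and the mean fell by 33.7 percentage points (exact permutation p = 0.333, the smallest possible). These intervals cover counting error only. In all between-RNA pairs these partners together had 9.41% and 11.1% of all counts in control libraries and 4.15% and 3.93% of counts in the differentiation libraries. That measure counts each pair once, with Malat1 or Neat1 on either side, so it is not the mean share of single RNAs.

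For Rny1, where Malat1 was the only one of these 2 partners listed, the share was 21.2% (15.1 to 28.9%) and 24.3% (18.2 to 31.7%) against 15.8% (7.44 to 30.4%) and 18.1% (10.9 to 28.5%). Here the intervals of all 4 libraries overlapped. The other polymerase III RNAs had smaller shares with Malat1 and Neat1 in every library, at most 5.10% (Rn7s1 in control 1). These shares are not on a like basis. A listed pair needs a count in every library, so an RNA with few counts can lose its rarer partners. Rny3 had 695 counts over 16 partners, against 9644 (Rn7s1) to 34433 (Rmrp) counts over 228 (Rpph1) to 796 (Rmrp) partners for the others. For Rn7sk, which had no listed pair with Malat1, the share was with Neat1 alone, at 4.25% and 4.52% in the controls against 1.04% and 0.749%.

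**Figure D2:**
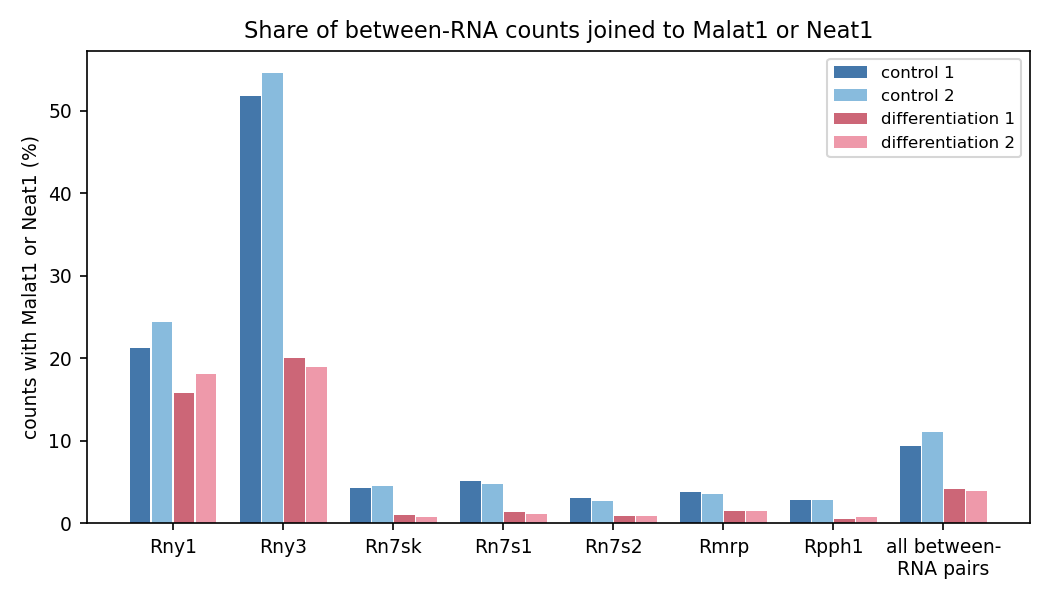
Percent of the between-RNA counts of each RNA that joined it to Malat1 or Neat1, 1 bar per library. Shares were not matched for the number of counts or listed partners of each RNA. Rny3 stands at 51.8% and 54.5% in the controls against 20.0% and 18.9% in the differentiation libraries. The 5 other small RNAs are at or under 5.10% in every library. Their shares, and that of all between-RNA pairs, are also lower in both differentiation libraries than in both controls.

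Summed over the 4 libraries, 46.0% of Rny3 counts were with Malat1 or Neat1, which ranked 18 among 4676 RNAs with at least 100 between-RNA counts, whose median was 0%. Rny1, at 21.3%, ranked 154. Of the 17 RNAs above Rny3, 8 lay on chromosome 19 within 222 kb of the Malat1 and Neat1 genes, 4 were small nucleolar RNAs (Snord12, Snord42a, Snord37 and Snord42b), 4 were unmatched and the last was Brinp3 on chromosome 1. These shares describe the libraries, were not matched for the number of counts of each RNA and were not tested.

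The pair of Rny3 with Malat1 had the most counts of any Y RNA pair, with 69 and 118 in the controls against 10 and 9 in the differentiation libraries. Both differentiation values lay far below both controls. It fell 6.42-fold in the fit, with means of 71.4 ± 18.7 and 11.4 ± 3.96 CPM (log2 change −2.68, SE 0.42, adjusted p = 0.00100). CPM of single pairs, here and below, used the library sizes of the pair fit and cannot be set against CPM of contact totals. The pair of Rny3 with Neat1 had 47 and 57 counts in the controls against 2 and 8 in the differentiation libraries, and fell 7.05-fold in the fit, with means of 40.2 ± 0.903 and 5.25 ± 3.41 CPM (−2.82, SE 0.52, adjusted p = 0.00362). These were the only Y RNA pairs called, 2 of 15 tested, and none rose. Among all 31688 pairs tested 5.24% were called, 2.40% as lower, and among the 27249 between-RNA pairs 2.25% fell. Of the 15 Y RNA pairs 5 had an unadjusted p under 0.05, all with a log2 change below 0, against 20.7% of all 31688 pairs in either direction and 10.1% of between-RNA pairs in the lower direction. Both calls held without each library in turn, under RLE scaling and column totals, with DESeq2, and with no filter or the default filter.

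Malat1 and Neat1 also lost contacts as a whole, so the pairs were set against their partners. The contact total of Malat1 fell (−1.09, SE 0.15, adjusted p = 0.00106; 0.114 without control 2) and that of Neat1 fell (−2.34, SE 0.18, adjusted p = 3.07e-05). Rny3 made up 0.220% and 0.273% of Malat1 counts in the controls against 0.0801% and 0.0563% in the differentiation libraries. These shares did not overlap, and the mean log2 share fell by 1.87 (exact permutation p = 0.333). Among 1487 tested pairs of Malat1 with another RNA, of which 6.05% fell, the median log2 change was −0.87 and Rny3 had the 45th lowest value.

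For Neat1 the pattern rested on 1 library. Rny3 made up 0.0660% and 0.0605% of Neat1 counts in the controls, 0.0159% in differentiation 1 and 0.0596% in differentiation 2. The last value was close to the controls. Among 801 tested pairs of Neat1 with another RNA, of which 33.5% fell, the median was −1.99 and Rny3 had the 149th lowest value.

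**Figure D3:**
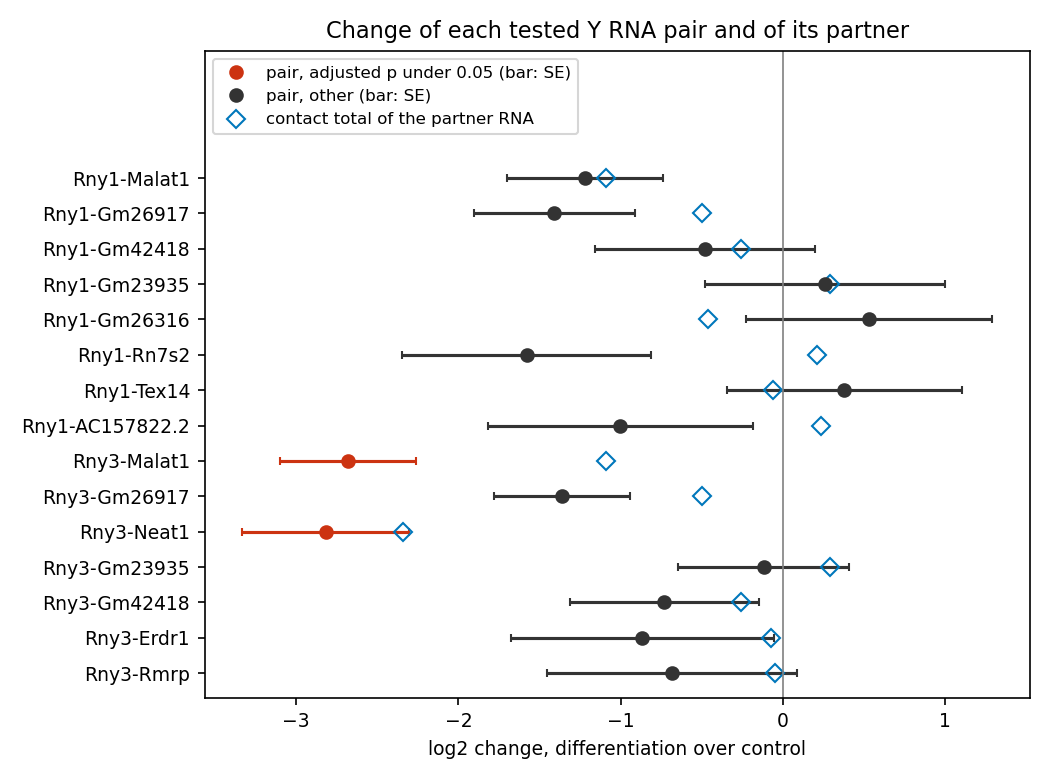
Log2 change of the 15 tested Y RNA pairs with the standard error of the fit (filled points, red where the adjusted p is under 0.05), and of the contact total of the partner RNA (open blue diamonds). The pair Rny3-Malat1 (−2.68) lies to the left of the Malat1 total (−1.09), and Rny3-Neat1 (−2.82) to the left of the Neat1 total (−2.34). Pairs and totals were scaled in separate fits, so the distance between a point and its diamond is approximate. On the scale of contact totals, the mean log2 CPM of these pairs changed by −2.95 and −3.40.

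Gm26917 was the next partner of both Y RNAs. Its pair with Rny3 had 45 and 53 counts in the controls against 9 and 17 in the differentiation libraries, or 38.0 ± 0.0664 against 14.5 ± 2.47 CPM (−1.36, SE 0.42, adjusted p = 0.0688). Its pair with Rny1 had 30 and 34 against 8 and 8 counts, or 24.8 ± 0.632 against 9.52 ± 2.62 CPM (−1.41, SE 0.50, adjusted p = 0.111). In both pairs the groups did not overlap, and neither passed the threshold. The Rny3 pair did pass under column totals (adjusted p = 0.0455), with no filter (0.0486) and with the default filter (0.0435). The change of the Gm26917 total was −0.50 (adjusted p = 0.0296), which did not pass under RLE scaling (0.0522), under column totals (0.168), or without control 1 (0.183) or control 2 (0.491).

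The pair of Rny1 with Malat1 had 28 and 37 counts in the controls against 6 and 13 in the differentiation libraries, or 25.1 ± 2.08 against 10.5 ± 2.77 CPM (−1.22, SE 0.48, adjusted p = 0.154). The groups did not overlap, but the difference did not pass. Rny1 made up 0.0894% and 0.0855% of Malat1 counts in the controls against 0.0481% and 0.0814% in the differentiation libraries, so the second differentiation library stood near the controls.

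Contacts with Gm23935 had the smallest change among the main partners of Rny3. The pair had 13 and 22 counts in the controls against 7 and 15 in the differentiation libraries, or 13.4 ± 3.41 against 12.2 ± 3.12 CPM (−0.12, SE 0.53, adjusted p = 0.938), and its groups overlapped. Its sign turned without control 2 (0.18) or differentiation 1 (0.09). The share of Rny3 counts with Gm23935 was 5.80% and 6.85% in the controls against 11.7% and 16.7% in the differentiation libraries (exact permutation p = 0.333). For Rny1 the pair with Gm23935 had 6 and 7 counts against 1 and 10, so the differentiation libraries stood on either side of the controls. Pairs with Gm42418 had 14 and 18 against 5 and 8 counts for Rny3 (−0.73, SE 0.58, adjusted p = 0.531) and 12 and 9 against 6 and 4 for Rny1 (−0.48, SE 0.68, adjusted p = 0.767).

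Pairs of the Y RNAs with other small noncoding RNAs held few counts. Rny1 with Rn7s2, a copy of 7SL RNA, had 10 and 8 counts in the controls against 1 and 3 in the differentiation libraries (−1.58, SE 0.77, adjusted p = 0.254), and its groups did not overlap. Rny3 with Rn7s2 had 4 and 10 against 3 and 4 counts and could not be tested after the filter. Rny3 with Rmrp had 6 and 6 against 2 and 3 counts (−0.68, SE 0.77, adjusted p = 0.690). Rny1 with the small nuclear RNA gene Gm26316 had 2 and 9 against 2 and 9 counts, so replicates differed more than groups did (0.53, adjusted p = 0.767). Its pair with Gm24950 had 3 and 4 against 2 and 2 counts and was not tested. Both small nuclear RNA genes lie on chromosome 11, Gm26316 at 101604850 to 101605040 and Gm24950 at 101641748 to 101641938.

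Protein-coding partners numbered 8 for Rny1 and 6 for Rny3, and only Cmss1 was common to both. On the scale of contact totals, those of Rny1 summed to 18.5 and 17.6 CPM in the controls against 8.15 and 9.18 CPM in the differentiation libraries, with no overlap. Those of Rny3 summed to 8.10 and 10.6 CPM in the controls against 9.78 and 9.72 CPM in the differentiation libraries, which lay between the controls. Of single pairs, Rny1 with Tex14, a gene needed for the bridges between germ cells, had 4 and 6 against 2 and 7 counts (0.38, SE 0.72, adjusted p = 0.838). Rny1 with Syne2, a nuclear envelope gene, had 9 and 5 counts against 1 and 1, a ratio of control over differentiation of 4.74 with an exact counting interval of 1.09 to 43.0. Rny1 with Nav2 had 9 and 4 against 1 and 2 counts, a ratio of 2.93 (0.806 to 16.1). The contact total of Nav2 itself fell (−1.95, SE 0.17, adjusted p = 4.57e-05), and the share of Nav2 counts held by Rny1 was 0.380% and 0.134% in the controls against 0.196% and 0.326%, which overlapped. The contact total of Syne2 fell as well (−0.61, SE 0.14, adjusted p = 0.0186), a call not kept under column totals (0.0954), without control 1 (0.152) or without control 2 (0.295). Rny1 held 0.296% and 0.132% of Syne2 counts in the controls against 0.0688% and 0.0444% (exact permutation p = 0.333). Rny3 with Cmss1 went the other way, with 2 and 3 counts in the controls against 1 and 10 in the differentiation libraries, where 1 library held the difference.

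The low pairs cannot show a fall to 0, since the table lists only pairs with a count in every library. Of the 33 Y RNA pairs, 18 had too few counts for the test, with 4 to 21 counts each, and 10 of these 18 had a lower mean CPM in the differentiation libraries. Over all 33 pairs, 12 were lower in both differentiation libraries than in both controls, against 21.0% of the 51800 between-RNA pairs, and 3 were higher in both, against 22.2%. Of the 15 tested pairs 12 had a log2 change below 0, and their median was −0.86 against −0.05 for all between-RNA pairs tested. A pair can pass the filter through the group where it is high, so this median describes those 15 pairs alone.

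**Figure D4:**
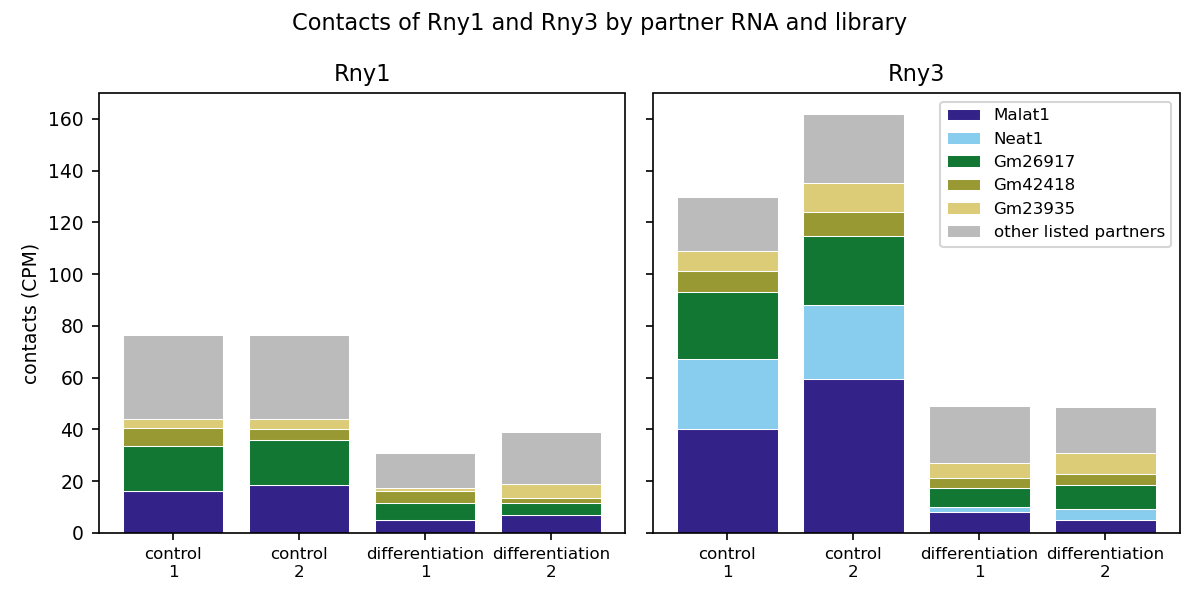
Contacts of Rny1 (left) and Rny3 (right) in CPM on the scale of contact totals, stacked by partner, 1 bar per library. In Rny3 the sum of Malat1 and Neat1 goes from 67.1 and 88.1 CPM to 9.78 and 9.18 CPM. The 11 smaller partners of Rny3 lie between 17.8 and 26.7 CPM. In Rny1 the 13 smaller partners go from 32.4 and 32.7 to 13.9 and 20.0 CPM. Partner size was judged on these same counts.

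In these libraries the fall of Rny3 was unevenly spread over its partners, split by their counts. The 5 main partners had the largest Rny3 counts summed over the same 4 libraries, and 545 of the 695 Rny3 counts came from the controls. Such a split can place partners that are high in the controls among the 5. It therefore describes these counts and was not a test. Sums here are in CPM on the scale of contact totals. Contacts of Rny3 with Malat1 and Neat1 summed to 67.1 and 88.1 CPM in the controls against 9.78 and 9.18 CPM in the differentiation libraries. Its 11 partners outside the 5 largest summed to 20.8 and 26.7 CPM against 22.0 and 17.8 CPM, and these overlapped. In alternatives chosen after the data were seen, the Rny3 total was refitted with the pairs of Malat1 and Neat1 removed from the whole table (−0.80, SE 0.23, adjusted p = 0.0418) and with the pairs of all 5 main partners removed (−0.40, SE 0.36, adjusted p = 0.551). Those 11 pairs hold at least 1 count each in every library by the way the table was made, and held 36 and 53 counts in the controls against 27 and 33 in the differentiation libraries. For Rny1 the 13 smaller partners summed to 32.4 and 32.7 CPM against 13.9 and 20.0 CPM, which did not overlap. Its change was −1.02 without Malat1 and Neat1 pairs (adjusted p = 0.0208) and −1.05 without those of the 5 main partners (adjusted p = 0.0878). A difference between the Y RNAs in this spread was not tested.

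RNAs with the most similar partners were found by summing the smaller of the shares of counts per partner over the 4 libraries, among 4677 RNAs. For Rny1 the closest was Rny3, with an overlap of 61.0%, followed by Gm22710 (58.0%) and the long noncoding RNA 2900060B14Rik (57.9%), which had nearly the same counts as each other. For Rny3 the closest were Zfas1, a host gene of small nucleolar RNAs, with 73.3%, Snord12, which lies within Zfas1 on chromosome 2, with 71.8%, and Ehbp1l1, 69.1 kb from Malat1 on chromosome 19, with 68.3%. Rny1 came in at place 10. Zfas1 had 25.2% of its between-RNA counts with Malat1 and 20.5% with Neat1, against 29.6% and 16.4% for Rny3. Its contact total fell (−1.37, SE 0.21, adjusted p = 0.00166; 0.0887 without control 2), as did that of Snord12 (−1.76, adjusted p = 0.00682; 0.0992 without control 1 and 0.122 without control 2), while Ehbp1l1 did not pass (−0.15, adjusted p = 0.682), with a change of 0.01 under column totals.

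RNAs with the most similar levels over the 4 libraries were found by the root mean square distance of centred log2 CPM, among RNAs within 2-fold of the mean level. For Rny3 they were Cgn (distance 0.0452), which encodes the tight junction protein cingulin, Arhgap28 (0.0492) and Plcb1 (0.0870) among 2192 RNAs. Their log2 changes were −1.54, −1.49 and −1.47, and the calls of Arhgap28 and Plcb1 were lost without control 2 (adjusted p = 0.0619 each). For Rny1 they were Mark4 (0.0252), St6galnac3 (0.0352) and Galnt7 (0.0543) among 2778 RNAs, with changes of −1.15, −1.17 and −1.04, whose calls were lost without control 1 and without control 2 (adjusted p from 0.0759 to 0.222); Mark4 also lost its call under column totals (0.0505) and with DESeq2 (0.0597). Distances over 4 libraries describe these libraries only.

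Of the genes of the Y RNA pathway, most contact totals did not pass the test. Each list here and in the next paragraph stands beside 5.44% of all RNAs tested that rose and 6.75% that fell. Among RNAs of Y RNA-binding proteins 21 of 23 names were listed and 20 tested; 3 rose and 1 fell, with a median of 0.09 against −7.07e-04 for all RNAs. Ybx3 rose from 138 ± 11.6 to 283 ± 53.8 CPM (1.04, SE 0.18, adjusted p = 0.00354) and Ybx1 from 119 ± 5.17 to 182 ± 9.26 CPM (0.61, adjusted p = 0.0354), both genes of cold shock domain RNA-binding proteins. The gene of the chaperone calreticulin, Calr, rose (0.75, adjusted p = 0.0308). Igf2bp2, which encodes an mRNA-binding protein of the ZBP1 family, fell (−0.80, adjusted p = 0.0207), a call lost under column totals (0.0768). All 4 calls were lost without control 1 (adjusted p from 0.0735 to 0.206) and without control 2 (0.149 to 0.360). Trove2, the gene of Ro60, had only 1, 3, 5 and 2 counts and was not tested, and Ssb, the gene of La, changed by 0.70 (adjusted p = 0.391).

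Among RNA polymerase III and its factors 1 of 23 tested RNAs rose and none fell, with a median of −0.01. It was Pou2f1 (0.73, adjusted p = 0.0345), whose product Oct-1 binds promoters of some small RNA genes. Its call was lost without control 1 (0.149), without control 2 (0.358) and with DESeq2 (0.0584). Among RNAs of 3' end trimming and decay factors 0 of 14 passed, with a median of −0.46. The 3 tested members with the most counts were Dis3l2, an exonuclease gene (−0.39, adjusted p = 0.143), the exosome gene Exosc1 (0.72, adjusted p = 0.123) and the deadenylase gene Parn (−0.63, adjusted p = 0.162). Among DNA replication initiation genes 3 of 19 rose and none fell, with a median of 0.15. They were Cdc45 (1.23, adjusted p = 0.00136) and Mcm3 (1.02, adjusted p = 0.00396) and Mcm5 (0.84, adjusted p = 0.00575), parts of the replicative helicase. These 3 calls were lost without control 1 (adjusted p from 0.0579 to 0.107) and without control 2 (0.0734 to 0.171). Among 21 tested small noncoding RNAs other than the Y RNAs only Rpph1 passed, with a median of −0.02. None of the protein genes of these 4 lists was a listed partner of a Y RNA. Only 25 of all 13318 RNAs were a partner of either Y RNA, so this absence is not a result about these genes.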

How the data were processed

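The authors deposited 1 table of whole-number counts of chimeric reads per pair of RNAs in 4 RIC-seq libraries, with no normalization. Per the submitters' processing notes STAR and GRCm38 were used (roles and versions not stated). How reads were called, deduplicated or assigned when shared is not given in the sources used here. Counts were tested per pair and per contact total (a within-RNA pair counted once) with edgeR 4.0.16 (quasi-likelihood F test, R 4.3.3), TMM scaling and filterByExpr (minimum count 5, minimum total 10), two-sided, Benjamini-Hochberg adjusted over all 31688 pairs or 10993 RNAs tested, at 0.05. CPM used TMM-scaled library sizes, computed separately for pairs and for contact totals. CPM of a pair and of a total are therefore on different scales, except where the scale of contact totals is named. SE is the log2 change divided by the square root of F. Ratios and shares within libraries had exact permutation tests. Members, lists and tests were chosen with earlier results of these data known. Named were the members, their called and largest pairs, small-RNA pairs, shared partners, list members called (otherwise up to 3 largest; Trove2 and Ssb were added after their values were seen) and the most similar RNAs. Alternatives included DESeq2 1.42.0. Scripts were tested on simulated data.

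Replicate numbers were checked for pairing: deviations of same-numbered libraries correlated at 0.139 over totals and 0.0219 over pairs. Gene classes and coordinates (1-based) came from RefSeq GRCm38.p6.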

Additional observations from a re-analysis of the deposited data

How the results depend on the processing

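The Rny3 total kept its direction in 17 alternatives (log2 change −1.73 to −0.40) and the Rny1 total likewise (−1.30 to −0.94). Leaving out 1 library at a time gave −1.73 to −1.41 for Rny3 and −1.30 to −0.94 for Rny1. Without the pairs of the 5 main partners the changes were −0.40 (adjusted p = 0.551) and −1.05 (0.0878). Column totals moved the median of all RNAs from −7.07e-04 to 0.16, and gave −1.42 for Rny3 and −0.95 for Rny1. The 2 called Y RNA pairs numbered 1 when Neat1 or Malat1 pairs were removed, and 0 without both or without the 5 main partners, since the called pairs were then absent. Called RNAs numbered 129 to 2103 with 1 library left out and 765 without the 5 main partners, against 1340. Called pairs, 1662 in the main test, numbered 643 to 2533 with 1 library left out, 1104 without Neat1 pairs, 976 without Malat1 and Neat1 pairs, 525 without the 5 main partners and 759 over between-RNA pairs only. With the replicate number as a block, the Y RNA totals were −1.58 (adjusted p = 1.88e-09) and −1.12 (6.37e-04), the same number of Y RNA pairs (2) passed, and called RNAs numbered 1919 and called pairs 2434. With 2 numbers the libraries share only a number. The block fit estimates a further term from the same libraries, so its smaller p-values are not stronger evidence. In fits on 3 libraries the single library takes its spread from the other group. Signs of uncalled pairs turned when 1 library was left out, with ranges of −1.08 to 0.055 for Rny1-Gm42418, −1.75 to 0.91 for Rny1-Gm23935, −0.54 to 1.80 for Rny1-Gm26316, −0.43 to 0.78 for Rny1-Tex14 and −2.38 to 0.063 for Rny3-Erdr1, in each case turned without differentiation 2. Rny1-Gm26316 was also −0.08 without control 1, and Rny3-Gm23935, at −0.43 without differentiation 2, was 0.18 without control 2 and 0.09 without differentiation 1. The cause was not tested. Counts of 38 to 321 per library for the Y RNA totals, and under 25 for most pairs, limit the precision.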
